A study of Mus musculus with 20 samples.

Results

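The response of MCAD-deficient mouse liver to bacterial lipopolysaccharide (LPS) was measured by comparing 5 mcad -/- mice injected with LPS with 5 mcad -/- mice injected with vehicle, which are 10 of the 20 mice profiled. MCAD, encoded by Acadm, is a mitochondrial dehydrogenase that starts rounds of beta-oxidation of medium-chain fatty acids. The mice in both groups were males of a mixed BL6/SV129 background aged 50 to 60 days. They received either vehicle or LPS at 100 µg per 20 g of body weight and were then fasted for 12 h before the liver was taken. Each mouse gave 1 Affymetrix array of total liver RNA, labelled with biotin, and the design text calls the 5 mice of a group biological replicates. The other 10 arrays, 5 wild type mice given vehicle and 5 given LPS under the same fast, entered the comparison of the responses of the 2 genotypes. How the mcad -/- line was made and whether the wild type mice were littermates is not given in the sources used here. The title of the series names carbohydrate management in MCAD-deficient mice as its subject.

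LPS is the glycolipid of the outer membrane of Gram-negative bacteria, and it is sensed through the LPS-binding protein, CD14 and the receptor complex of TLR4 and MD-2. Signalling through MyD88 and TRIF activates NF-kappaB and interferon regulatory factors, and cytokines released by macrophages then switch hepatocytes to the acute phase response, in which defence proteins are made and secreted in place of many metabolic and transport functions. A fasted liver normally oxidises fatty acids, makes ketone bodies and exports glucose. A liver without MCAD lacks this dehydrogenase of medium-chain fatty acids.

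Expression is given as array intensity on the deposited linear scale, called units here, and the 5 values of a group are listed in the order of replicates 1 to 5, which do not pair mice between groups. The 18193 genes with a named probe set were reduced to 8774 that exceeded 16 units, taken as the floor of the arrays, on at least 5 of the 20 arrays. A gene passed the test when its adjusted p from limma (Benjamini-Hochberg over the 8774 genes, two-sided) was under 0.05, and "rose" and "fell" are used of such genes. Folds are ratios of geometric means, and log2 changes carry the standard error (SE) of the fit, with n = 5 mice in each group. Where all 5 mice of the dimmer group were under 16 units, the fold is a lower bound, computed against 16 units and written as "at least". Genes of 1 family with similar sequences (the Gbp, Orm, Saa, Hsd3b and cytochrome P450 families among those named) can share hybridisation, so values of single members are less certain than those of the family.

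The genotype labels were checked first. Acadm measured 37.5, 34.3, 9.03, 80.2 and 56.5 units in the vehicle mice and 19.1, 55.98, 218, 37.8 and 14.3 units in the LPS mice, against geometric means of 3407 and 1818 units in wild type vehicle and LPS mice. The mcad -/- groups overlapped and differed by a log2 of 0.25 ± 0.57 (two-sided exact permutation test, p = 0.77 over 252 regroupings), and each lay below its wild type counterpart (p = 0.00794 for both, two-sided exact permutation test). Where the probe set lies relative to the targeted exons was not examined. Hepatocyte identity was also plain: Alb, the gene of serum albumin, lay between 18790 and 22280 units in all 10 mice, and the mean log2 level of the 12 tested hepatocyte markers was 12.08 to 12.34 in vehicle mice and 11.68 to 11.98 in LPS mice.

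Along the first principal component of the 10 mcad -/- mice, which held 82.8% of the variance over tested genes, the vehicle mice lay between -57.21 and -45.9 and the LPS mice between 39.02 and 64.25. A few mice stood apart within their groups. Vehicle replicate 5 lay nearest the LPS mice, and its mean log2 level over the 29 tested positive acute phase genes was 11.7, against 10.4 to 10.71 in the other vehicle mice. LPS replicate 3 lay farthest out and LPS replicate 4 nearest the vehicle mice. Vehicle replicate 3 had a low value of Hamp. Where leaving out 1 of these mice ended a call named here or moved its fold by over 1.5 times, this is stated beside the result.

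LPS changed most of what was measured in the mcad -/- liver. Of the 8774 genes tested, 5768 passed (65.7%), with 3344 higher (38.1%) and 2424 lower (27.6%) after LPS, and the median log2 change over tested genes was 0.14. For 4506 genes (51.4%) the 5 LPS mice and the 5 vehicle mice did not overlap, with the LPS mice on the higher side for 29.6% of genes tested and on the lower side for 21.7%. The median size of the change among genes that passed was 0.8 on the log2 scale, and 304 genes rose and 296 fell by at least 4-fold. Centring the arrays on their medians moved the split to 2833 higher and 2734 lower, so that 50.9% of calls were higher in place of 58.0%. The 10 largest rises among genes above 16 units in all 10 mice included the chemokine gene Cxcl9, the acute phase genes Lcn2, Saa3 and Orm2 and the interferon-induced GTPase genes Gbp6 and Gbp3. Among genes above 16 units in all 10 mice, the largest falls were of the glucose transporter gene Slc2a2, the phosphoethanolamine lyase gene Etnppl and the uridine phosphorylase gene Upp2.

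**Figure D1:**
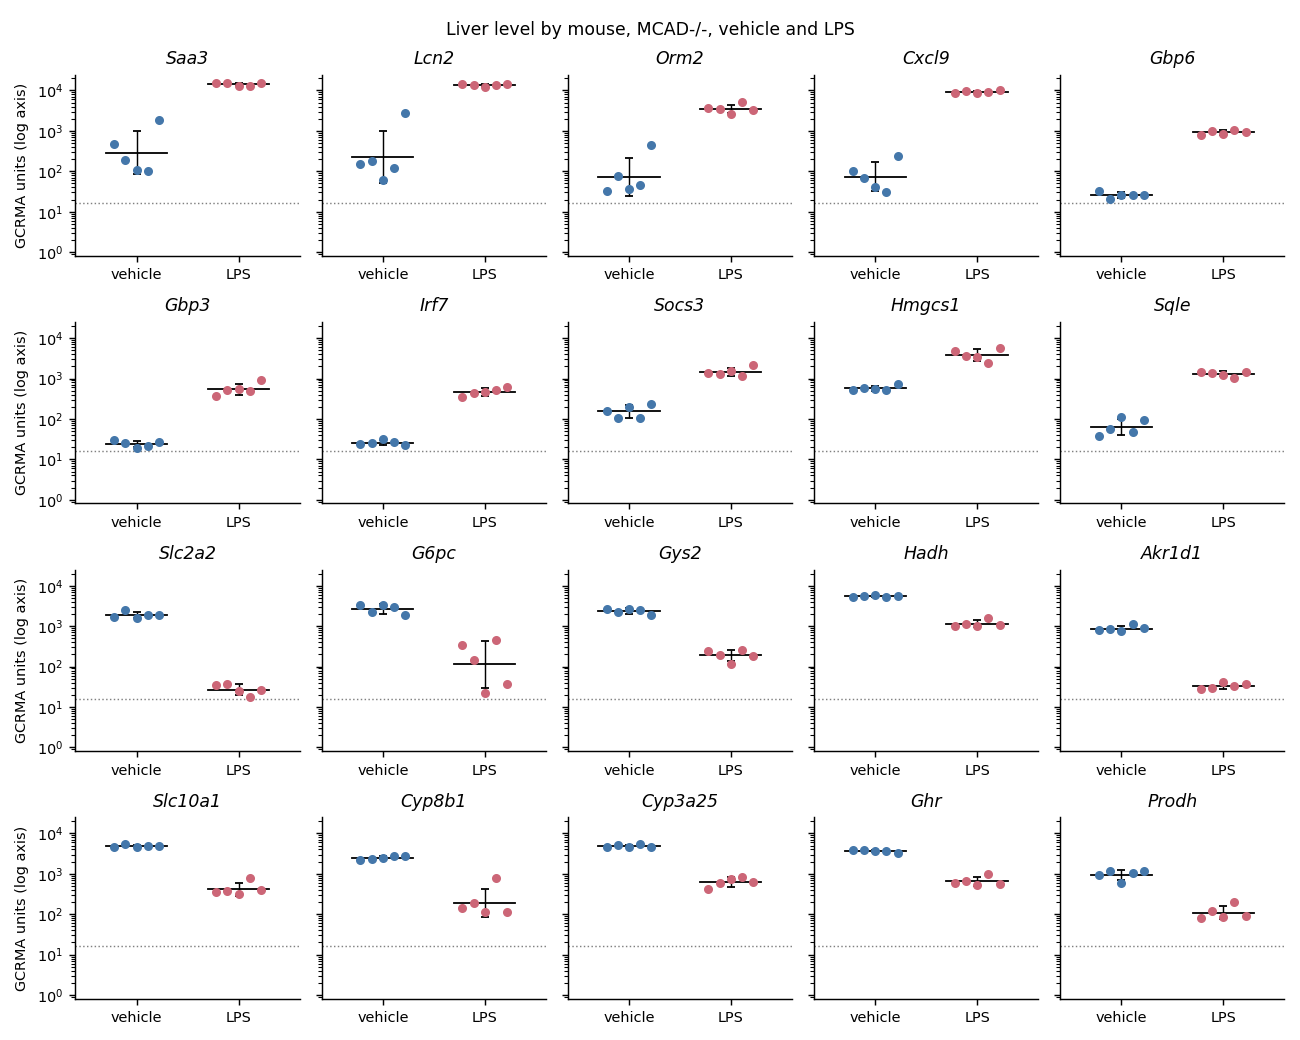
Array intensity (units, log axis) of 20 genes in the 5 vehicle and 5 LPS mcad -/- mice, 1 panel per gene. Points are single mice, bars are means of log2 values, whiskers are 1 SD on the log2 scale and the dotted line marks the floor of 16 units. The 5 LPS mice do not overlap the 5 vehicle mice in any of these 20 genes, and the high vehicle point of Lcn2 (2794 units), Saa3 (1878 units) and Orm2 (455.7 units) is vehicle replicate 5.

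The genes of LPS sensing rose. Of the 14 tested members of the sensing and signalling list, 11 rose and 0 fell, and the median log2 change of the 14 was 1.28 against 0.14 over all tested genes; 5 of the 14 were under the floor in all vehicle mice, so they passed the filter through their LPS levels. Cd14, the co-receptor that hands LPS to the TLR4 complex, measured 11.9, 8.36, 19.7, 10.5 and 20.8 units after vehicle and 2988, 1827, 2183, 934 and 3137 units after LPS. No LPS mouse came near the vehicle range, and the fold of 152 (limma adjusted p = 5.6e-13) rests on vehicle values at the floor. Lbp, which carries LPS in plasma, already stood at 1375, 1505, 1328, 1796 and 2263 units after vehicle and reached 4050, 3885, 3460, 4317 and 4431 units. All LPS mice exceeded all vehicle mice, by 2.48-fold on average (log2 change 1.31 ± 0.17, limma adjusted p = 1.66e-06). Tlr2, the receptor for bacterial lipoproteins, was at 5.85, 6.12, 5.68, 6.46 and 5.26 units in vehicle mice and 24.1, 21.2, 32.7, 56.6 and 43.9 units in LPS mice, at least 2.09-fold higher. The 11 genes that rose also included those of the adaptor MyD88 and of MD-2 (Ly96), named as 2 of the list's members after their values were seen. Tlr4 itself did not exceed the floor on enough arrays to be tested.

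Of 16 tested genes of NF-kappaB and cytokine feedback, 11 rose and 1 fell (median log2 change 1.26, or 0.87 over the 21 measured); 3 of the 16 were under the floor in all vehicle mice. Socs3, the inhibitor induced by interleukin-6 signalling, rose from 157, 107, 201, 108 and 238 units to 1398, 1303, 1574, 1167 and 2108 units. The groups were clearly apart, 9.6-fold on average (log2 change 3.26 ± 0.31, limma adjusted p = 2.62e-08). Tnfaip3, which encodes the NF-kappaB inhibitor A20, was under the floor in vehicle mice and at 61.3, 53.95, 71.4, 72.9 and 66.6 units after LPS, at least 4.05-fold higher. Tifa, an adaptor of TRAF6, showed one of the widest contrasts in the list. Its vehicle values were 6.33, 9.49, 10.9, 12.4 and 32.6 units and its LPS values 2102, 1948, 2231, 1548 and 2482 units, a fold of 168 that depends on where vehicle values near the floor lie. Cish, a suppressor induced by growth hormone signalling, was the member that fell, 2.64-fold (limma adjusted p = 0.003), with groups that overlapped.

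Among signalling factors of the JAK-STAT and IRF families, 7 of 17 tested members rose and 3 fell, a share of rises near the 38.1% of all tested genes. Irf7, the transcription factor that drives interferon production, went from 23.4, 25.9, 32.1, 27.6 and 22.2 units to 349.5, 426, 462, 522 and 603 units. The groups lay far apart, and the average rise was 17.9-fold (limma adjusted p = 2.27e-13). Stat3, the factor through which interleukin-6 acts on hepatocytes, was at 680.3, 702, 531, 507 and 959 units after vehicle and 1482, 1259, 1581, 1595 and 1777 units after LPS. Its rise was smaller, 2.32-fold (log2 change 1.22 ± 0.29, limma adjusted p = 0.00111), with vehicle replicate 5 the highest vehicle mouse. Irf1, an interferon-gamma-induced factor, and Cebpd, an acute phase transcription factor, rose 1.88-fold and 2.67-fold. Irf2, which opposes Irf1, fell 2.12-fold, and Stat5b, the growth hormone mediator, fell 1.58-fold with 1 LPS mouse inside the vehicle range, a call lost when the probe sets of a gene were averaged (limma adjusted p = 0.308).

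Most cytokine messages were too dim to test in whole liver: of 24 measured genes of the cytokine list, 16 were not tested, among them Tnf, Il6 and Ifng. Of the 8 tested, 5 rose and 1 fell; 3 of the 8 were under the floor in all vehicle mice, and the median log2 change over the 24 measured was 0.12. Il33, the alarmin of the interleukin-1 family, was at 7.83, 9.04, 9.37, 11.1 and 7.95 units after vehicle and 1048, 739, 1513, 445 and 1242 units after LPS, at least 57.3-fold higher, with LPS replicate 4 the lowest LPS mouse. Il1rn, the interleukin-1 receptor antagonist, was at 11.7, 8.74, 37.99, 15.6 and 8.23 units and 1143, 909, 1057, 838 and 1844 units, a fold of 80.6 that depends on vehicle values around the floor. Il18, which encodes an inducer of interferon-gamma, fell from 154, 169, 119, 157 and 115 units to 37.9, 38.6, 47, 63.3 and 47.4 units. This was a 3.07-fold decrease in which the groups did not overlap (limma adjusted p = 2.5e-08).

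Of 11 tested chemokine genes, 6 rose and 3 fell, the share of falls being near the 27.6% of all tested genes. In 3 of the 11 all vehicle mice were under the floor. Cxcl9, the interferon-gamma-induced attractant of T cells, was at 104, 67.9, 41.95, 31.2 and 241 units in vehicle mice and 8758, 9445, 8518, 9215 and 9988 units in LPS mice. Vehicle values were spread widely, with replicate 5 the highest, while LPS values lay close together, and the rise was 124-fold (log2 change 6.95 ± 0.43, limma adjusted p = 5.7e-11). Ccl5, an attractant of T cells and monocytes, was under the floor after vehicle and at 357, 313, 384, 416 and 446 units after LPS, at least 23.8-fold higher. Cxcl10, which shares its receptor with Cxcl9, was under the floor in all vehicle mice and at 55.7, 58.5, 32.2, 182 and 114 units after LPS, at least 4.61-fold higher. Cxcl12, the attractant that holds haematopoietic cells in place, fell from 822, 979, 940.5, 998 and 862 units to 467, 468, 218, 554 and 236 units. It fell in every LPS mouse relative to every vehicle mouse, 2.54-fold (limma adjusted p = 4.93e-05). Ccl2, the monocyte attractant, was too dim to test and reached 16 units in 2 LPS mice, at 10.3, 12.2, 13.1, 39.4 and 16.5 units after LPS.

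Interferon-induced genes rose as a block. All 11 tested genes of the interferon-induced GTPase list, whose products attack vacuoles that hold microbes, rose, with a median log2 change of 2.25. In all 11 the LPS mice were higher without overlap, against 29.6% of all tested genes. Of the 11, 3 were under the floor in every vehicle mouse. Gbp6 was at 32.9, 20.9, 25.6, 25.5 and 25.8 units after vehicle and 774, 1003, 825, 1030 and 950.3 units after LPS. The rise was 35.2-fold (log2 change 5.14 ± 0.24, limma adjusted p = 1.05e-12), with little spread in either group. Gbp3 rose from 29.7, 25.6, 19.2, 21.6 and 26.99 units to 379.7, 515, 553, 480.1 and 916 units, 22.4-fold, with LPS replicate 5 the highest mouse. Gbp2b and Gbp2 were under the floor after vehicle and reached 649, 975, 1050, 891 and 1482 units and 427, 534, 607, 505 and 770.1 units after LPS, at least 60.9-fold and 34.8-fold higher.

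Of 27 tested antiviral interferon-stimulated genes, 26 rose and 0 fell (median log2 change 1.27); Xaf1 was the member that did not pass, and 7 of the 27 were under the floor in all vehicle mice. Zbp1, a sensor of Z-form nucleic acids, was at 7.44, 9.03, 13.6, 6.97 and 9.401 units and 398, 358, 424, 264 and 416 units, at least 22.9-fold higher. Oasl2, of the oligoadenylate synthetase family, was at 12.5, 9.18, 5.59, 8.29 and 5.4 units and 120.1, 171, 155, 193 and 302 units, at least 11.2-fold higher, again with LPS replicate 5 the highest. Ifit1, which binds uncapped viral RNA, rose from 20.3, 29.1, 13, 21.8 and 25.5 units to 49.05, 109, 84.1, 181 and 133 units. Its groups were apart but its LPS values varied, with replicate 1 the lowest and replicate 4 the highest (rise of 4.79-fold, limma adjusted p = 6.85e-06). Rsad2, the antiviral enzyme viperin, rose 3.08-fold (limma adjusted p = 2.55e-05).

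Promoters of 3 members of the interferon lists are shown because members of both lists moved together, and that of the chemokine gene Cxcl10 is set beside them for its kappaB match. The 250 bases before the annotated start of these 4 genes, on the strand of the gene and written 5′ to 3′ from the RefSeq annotation of build GRCm38.p6, are given with matches to the interferon-stimulated response element (ISRE, searched as GAAA, any 2 bases and GAAA) in capitals, and in the Cxcl10 promoter also the match to a kappaB site (searched as GGGA, any 2 bases and TTCC). Positions count back from the start, -1 being the base before it. In Gbp2 (chr3:142620413-142620662, plus strand) the match covers -59 to -50, in Gbp3 (chr3:142559794-142560043, plus strand) 2 overlapping matches cover -45 to -36 and -39 to -30, and in Ifit1 (chr19:34640639-34640888, plus strand) matches lie at -104 to -95 and -85 to -76; all of these lie on the opposite strand and so read as the complement. In Cxcl10 (chr5:92348890-92349139, minus strand) the ISRE covers -213 to -204 and the kappaB match -159 to -150, both on the strand of the gene.
Gbp2: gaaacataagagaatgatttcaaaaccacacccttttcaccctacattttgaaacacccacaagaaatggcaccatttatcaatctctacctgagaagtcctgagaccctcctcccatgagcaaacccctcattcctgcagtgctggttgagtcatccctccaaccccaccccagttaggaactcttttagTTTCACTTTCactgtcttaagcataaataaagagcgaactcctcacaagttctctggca
Gbp3: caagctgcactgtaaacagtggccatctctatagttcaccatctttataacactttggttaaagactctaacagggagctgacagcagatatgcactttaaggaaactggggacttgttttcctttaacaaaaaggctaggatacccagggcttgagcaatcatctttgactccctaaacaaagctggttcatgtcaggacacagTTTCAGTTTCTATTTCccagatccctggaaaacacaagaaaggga
Ifit1: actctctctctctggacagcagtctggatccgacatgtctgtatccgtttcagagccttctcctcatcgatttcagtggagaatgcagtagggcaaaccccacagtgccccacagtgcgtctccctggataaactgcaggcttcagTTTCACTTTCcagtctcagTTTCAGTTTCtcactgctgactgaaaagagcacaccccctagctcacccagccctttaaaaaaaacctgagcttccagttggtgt
Cxcl10: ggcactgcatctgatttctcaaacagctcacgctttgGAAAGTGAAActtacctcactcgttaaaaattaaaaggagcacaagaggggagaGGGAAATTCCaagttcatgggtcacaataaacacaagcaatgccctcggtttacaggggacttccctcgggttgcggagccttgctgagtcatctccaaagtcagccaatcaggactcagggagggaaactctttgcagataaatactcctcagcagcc
Over both strands of windows from 250 bases before to 50 bases after the start, the ISRE letters were found in 7 of the 8 GTPase genes with a window (87.5%) and in 10 of the 20 antiviral genes with one (50.0%), against 3.5% of 27025 genes. Of the genes that rose at least 4-fold, 7.4% held it, and of those that fell at least 4-fold, 2.6%. The kappaB letters were found in 4.5% of genes that rose at least 4-fold and 1.4% of all genes. A match is a description of the letters, not of binding.

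Class I antigen presentation and immunoproteasome genes rose. Of 16 tested genes of the list, 11 rose and 1 fell (median log2 change 1.02), and 1 of the 16 was under the floor in all vehicle mice. Psmb8, an immunoproteasome subunit, rose from 90.1, 99.4, 102, 110.3 and 76.7 units to 656, 595, 590.3, 677 and 639.6 units. Its groups were far apart and each had a narrow spread, at 6.64-fold (log2 change 2.73 ± 0.14, limma adjusted p = 3.55e-12). Psmb10, its partner subunit, rose 4.19-fold (limma adjusted p = 1.53e-11). B2m, the light chain of class I, lay at 9576, 8856, 9529, 9457 and 7492 units and 8025, 7803, 6379, 9424 and 8953 units, with overlapping groups and a log2 change of -0.15 ± 0.12 that did not pass (limma adjusted p = 0.274). H2-Aa, a class II chain, was at 106, 108, 70.3, 102 and 64.2 units after vehicle and 32.2, 52.2, 87.95, 41.9 and 48.5 units after LPS, 1.77-fold lower (limma adjusted p = 0.00523), with LPS replicate 3 inside the vehicle range, and the call was lost when the probe sets of a gene were averaged (limma adjusted p = 0.054).

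The acute phase programme of the hepatocyte rose in 27 of its 29 tested positive members, with 0 lower and a median log2 change of 1.11, and Cp and Cfb did not pass. Saa3, a serum amyloid A, was at 475, 189, 110.5, 103 and 1878 units after vehicle and 15390, 14910, 12860, 13190 and 15000 units after LPS. Vehicle replicate 5 stood above the rest of its group but far below every LPS mouse, so the rise of 49.7-fold (log2 change 5.64 ± 0.52, limma adjusted p = 1.35e-08) became 79.6-fold without that mouse. Lcn2, which withholds iron from bacteria by binding siderophores, was at 152, 180.2, 61.2, 122 and 2794 units and 14410, 13930, 11950, 13520 and 14280 units. The rise was 60.5-fold with all mice (limma adjusted p = 1.29e-07) and 113.5-fold without vehicle replicate 5. Orm2, an orosomucoid, was at 32.5, 76.6, 37.5, 45.6 and 456 units and 3661, 3390, 2651, 5069 and 3306 units, a rise of 49.1-fold (limma adjusted p = 6.32e-08), or 77.8-fold without the same mouse. All 3 genes had vehicle replicate 5 as the highest vehicle mouse, and none had overlapping groups.

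A2m, the broad protease inhibitor alpha-2-macroglobulin, was at 5.79, 3.76, 6.43, 5.01 and 73.3 units in vehicle mice and 8261, 6777, 7028, 6783 and 6150 units in LPS mice. Among vehicle mice replicate 5 alone exceeded the floor, while the LPS mice lay close together, and the fitted fold of 795 depends on the values below the floor (limma adjusted p = 1.14e-11). Without vehicle replicate 5 it was 1353-fold (limma adjusted p = 3.99e-16). Hp and Saa1, already bright after vehicle, rose by smaller factors. Whether an upper limit of the arrays reduced their folds was not tested. Hp, haptoglobin, which binds free haemoglobin, went from 11550, 12830, 12250, 11330 and 15220 units to 16600, 16460, 17530, 16190 and 16870 units. This was 1.33-fold (log2 change 0.41 ± 0.08, limma adjusted p = 0.000264), with no overlap. Saa1, the main circulating serum amyloid A, was at 5194, 9466, 3411, 4894 and 19640 units and 23000, 22390, 23190, 20860 and 22840 units. Vehicle replicate 5 nearly reached the LPS mice, and the rise was 3.23-fold (limma adjusted p = 5.88e-05). Steap4, a metalloreductase induced by inflammation, rose 8.59-fold (limma adjusted p = 1.02e-09).

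Hamp, hepcidin, the hormone that lowers plasma iron, was at 6087, 2475, 94.6, 3116 and 6210 units in vehicle mice and 8254, 6745, 7853, 10890 and 10560 units in LPS mice. Every LPS mouse was above every vehicle mouse, but vehicle replicate 3 lay far below the other vehicle mice, and the rise of 4.49-fold (limma adjusted p = 0.0137) became 2.11-fold without it (limma adjusted p = 0.0012). In a fit of the 10 mcad -/- mice alone the change did not pass (limma adjusted p = 0.0614).

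The promoter of Orm2 is shown for its match to the C/EBP letters (searched as TTGNNCAA), since 8 of 23 acute phase genes with a window held them (34.8%) against 6.5% of all genes. Among genes that rose at least 4-fold 10.2% held them, and among those that fell at least 4-fold 8.7%. The match, in capitals, covers -120 to -113 on the strand of the gene (chr4:63362199-63362448, plus strand, GRCm38.p6, RefSeq).
Orm2: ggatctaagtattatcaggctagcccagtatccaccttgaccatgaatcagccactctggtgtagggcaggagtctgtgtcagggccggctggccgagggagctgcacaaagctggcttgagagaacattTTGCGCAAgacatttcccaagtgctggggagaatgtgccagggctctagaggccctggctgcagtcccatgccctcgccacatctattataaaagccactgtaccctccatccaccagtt

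Genes of other secreted hepatocyte proteins moved less. Of 16 tested genes of the negative acute phase list, 10 fell and 1 rose (median log2 change -0.24). Rbp4, the plasma carrier of retinol, fell from 10750, 11230, 11460, 10790 and 11220 units to 4920, 4929, 4399, 6783 and 5063 units, with no overlap (2.15-fold, limma adjusted p = 7.48e-09). Pon1, an antioxidant enzyme of high-density lipoprotein, fell 2.004-fold (limma adjusted p = 2.93e-07). Alb and Ttr, which encodes transthyretin, fell by 1.14-fold and 1.14-fold (limma adjusted p = 0.0245 and 0.0199); the call on Alb was lost when vehicle replicate 2 or vehicle replicate 3 was left out (limma adjusted p = 0.0503 and 0.0511) and after quantile scaling (0.0594). Ambp, the precursor of alpha-1-microglobulin and bikunin, was the member that rose, 1.22-fold (limma adjusted p = 0.0124), a call lost after each array was centred on its median (0.0805).

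Complement and coagulation genes fell in 15 of 23 tested members and rose in 3 (median log2 change -0.67). Serpind1, heparin cofactor II, fell from 3338, 3422, 3750, 3358 and 2683 units to 460.4, 615, 312, 817 and 343 units. The decrease was 6.89-fold (limma adjusted p = 1.84e-09), with LPS replicate 4 the highest LPS mouse. Klkb1, plasma prekallikrein, had one of the 10 largest falls among separated genes above 16 units in all 10 mice. It was at 2063, 1979, 1965, 1820 and 1681 units after vehicle and 51.9, 40.7, 43.5, 146 and 49.3 units after LPS (32.7-fold, limma adjusted p = 6.01e-12). LPS replicate 4 was again apart from the other LPS mice. Proc, protein C, fell 2.39-fold, while Thbd, thrombomodulin, which activates protein C on endothelium, rose 5.81-fold from 23.5, 11.9, 31.1, 20.9 and 9.08 units to 164, 124, 82.95, 59.95 and 108 units (limma adjusted p = 9.56e-07). Mbl1, a mannose-binding lectin, rose 2.202-fold (limma adjusted p = 8.42e-08).

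Genes of cell death, immediate early response and growth arrest rose or did not pass. Mlkl, the effector of necroptosis, was under the floor in all vehicle mice and at 176, 211, 255, 148 and 280.5 units after LPS, at least 13.02-fold higher, and Gsdmd, the pore former of pyroptosis, rose from 36.2, 64.2, 45.8, 44.2 and 61.5 units to 312, 364, 226, 332 and 404 units. In the cell death list 6 of 12 tested genes rose and 0 fell, against 38.1% higher and 27.6% lower over all tested genes. Of the 12, 3 were under the floor in all vehicle mice. The list's median log2 change was 0.56, or 0.23 over the 19 measured, against 0.14 over all tested genes. Ier3, an immediate early gene, was under the floor after vehicle and at 603, 332, 944, 189.7 and 852 units after LPS, at least 31.1-fold higher, with LPS replicate 4 the lowest. In the immediate early list 8 of 12 rose and 0 fell. Cdkn1a, the cell cycle inhibitor p21, was at 18.4, 14.6, 18.7, 26.02 and 65.4 units and 544, 423, 737, 525 and 838 units. The rise of 24.4-fold (limma adjusted p = 1.01e-08) had vehicle replicate 5 as the highest vehicle mouse, and 11 of 15 tested genes of the growth arrest and cell cycle list rose with 0 lower, 3 of the 15 having been under the floor in all vehicle mice (median log2 change 1.02, or 0.59 over the 21 measured).

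Genes of the integrated stress response rose in 12 of 16 tested members with 0 lower (median log2 change 0.85, or 0.62 over the 18 measured); 3 of the 16 were under the floor in all vehicle mice, and the mean log2 level of the list in LPS replicate 3 was 8.15 against 7 to 7.26 in the other LPS mice. Without that mouse 11 rose and 2 fell. Ddit3, the factor CHOP, rose from 30.2, 39.3, 27.5, 21.7 and 21.5 units to 306, 222, 342, 287 and 182 units. The groups were well apart at 9.56-fold (log2 change 3.26 ± 0.19, limma adjusted p = 2.18e-11). Psat1, an enzyme of serine synthesis, was under the floor after vehicle and at 29.3, 24.99, 79.1, 18.3 and 102 units after LPS, at least 2.53-fold higher, with replicates 3 and 5 the highest. Genes of endoplasmic reticulum stress rose in 15 of 22 and fell in 3, but the mice's means over that list overlapped. Hspa5, the chaperone BiP, rose 1.495-fold (limma adjusted p = 3.1e-05), Pdia6, a disulfide isomerase, rose 2.33-fold, and Herpud1, a factor of protein degradation at the endoplasmic reticulum, fell 2.16-fold (limma adjusted p = 8.35e-05). Atf6, a sensor of the same stress, fell 2.18-fold by its brightest probe set (limma adjusted p = 6.13e-06), and another of its 3 tested probe sets passed in the opposite direction.

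**Figure D2:**
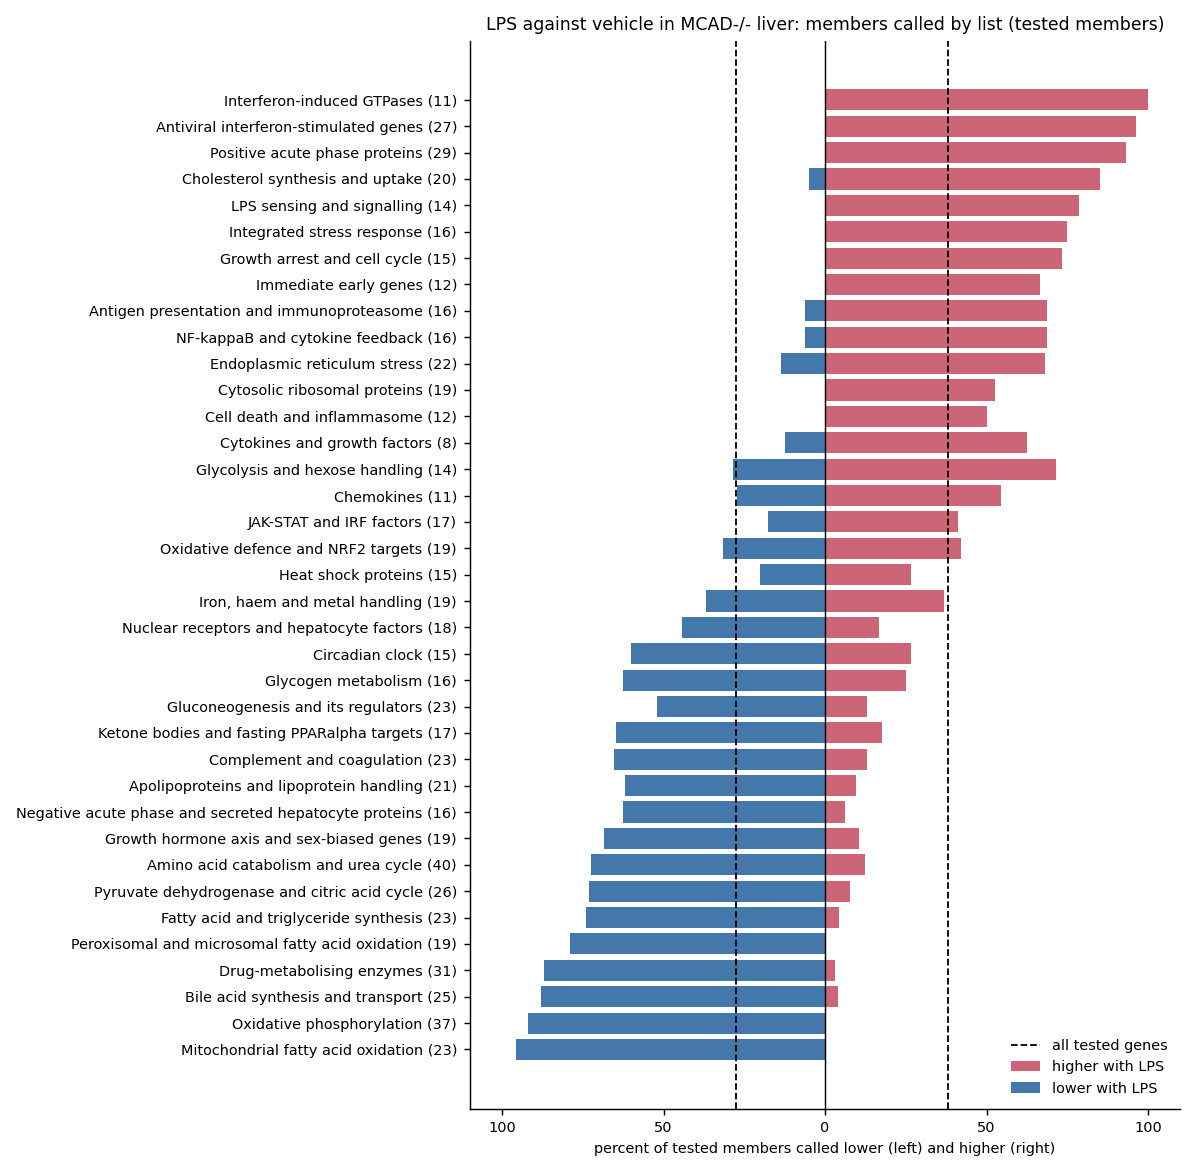
Percent of the tested members of each gene list that fell (left of 0) or rose (right of 0) after LPS in mcad -/- liver, with the number tested in parentheses; dashed lines mark the shares over all tested genes, 27.6% lower and 38.1% higher. Lists with at least 5 tested members are drawn, and the interferon-induced GTPases (11 of 11 higher) and the mitochondrial fatty acid oxidation genes (22 of 23 lower) lie near the ends of the scale.

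Genes of fatty acid oxidation, the pathway in which MCAD acts, were mostly lower. Of 23 tested genes of mitochondrial fatty acid oxidation, 22 fell and 0 rose, with a median log2 change of -0.74, and Acad9 did not pass; with LPS replicate 3 left out 20 fell. Hadh, the dehydrogenase of short and medium chains later in the same cycle, fell from 5235, 5464, 5846, 5365 and 5528 units to 997, 1144, 987, 1602 and 1083 units. The mice of each group lay close together, and the decrease was 4.796-fold (log2 change -2.26 ± 0.13, limma adjusted p = 1.8e-11). Cpt1a, which admits long chains to the mitochondrion, fell from 2491, 2153, 2566, 2247 and 2049 units to 1635, 1134, 782, 1252 and 964 units, 2.05-fold (limma adjusted p = 1.91e-05). Cpt2, the inner-membrane partner of Cpt1a, fell only 1.25-fold with 1 LPS mouse inside the vehicle range (limma adjusted p = 0.0316). That call was lost without LPS replicate 3 (limma adjusted p = 0.109), LPS replicate 5 (0.0838), vehicle replicate 1 (0.0684) or vehicle replicate 2 (0.0584), with array weights (0.0746), with averaged probe sets (0.227) and in a fit of the 10 mice alone (0.0543). Acsl5, which activates long-chain fatty acids, fell 1.99-fold (limma adjusted p = 1.02e-07).

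Genes of peroxisomal and microsomal oxidation fell in 15 of 19 tested members with 0 higher (median log2 change -0.98). All LPS mice were under the floor for 1 of the 19. Decr2, the peroxisomal dienoyl-CoA reductase, fell from 821, 866, 722, 667 and 709 units to 130, 87.8, 76.3, 125 and 75.9 units. The fall of 7.83-fold (log2 change -2.97 ± 0.23, limma adjusted p = 1.43e-09) was seen in every LPS mouse. Acaa1b, the peroxisomal thiolase, fell 5.36-fold, and Ehhadh, the peroxisomal bifunctional enzyme, fell from 1049, 953, 1684, 1100 and 707 units to 442, 267, 224, 289.6 and 227 units (3.76-fold, limma adjusted p = 1.02e-07). Vehicle replicate 3 was the highest mouse for both genes.

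Among genes of ketone bodies and the fasting programme of PPARalpha, 11 of 17 tested fell and 3 rose (median log2 change -1.16). All LPS mice were under the floor for 2 of the 17 and all vehicle mice for 1, and the median over the 18 measured was -1.13. Ppara, the receptor that switches on fatty acid oxidation in fasting, fell from 1894, 2081, 1745, 1757 and 1785 units to 850.1, 795, 503, 1006 and 559 units. No LPS mouse reached the vehicle range, and the decrease was 2.57-fold (log2 change -1.36 ± 0.18, limma adjusted p = 1.57e-06). Bdh1, which makes beta-hydroxybutyrate, fell from 1116, 1170, 1726, 1116 and 1109 units to 225, 267, 128, 282 and 215 units, 5.69-fold (limma adjusted p = 3e-09). Acot1, an acyl-CoA thioesterase, fell from 519.6, 255, 1141, 484 and 181 units to values under the floor in all 5 LPS mice, at least 26.3-fold lower. Fgf21, the fasting hormone of the liver, was dim after vehicle at 25.2, 18.96, 15.7, 14.8 and 12.7 units and under the floor in all LPS mice at 5.96, 3.75, 5.17, 4.37 and 4.04 units. The members that rose were Plin2, which coats lipid droplets (2.37-fold, from 2372, 2213, 3089, 2188 and 2441 units to 7619, 5804, 6312, 4211 and 5553 units), the lactate and ketone transporter gene Slc16a1 (2.68-fold) and the lipid droplet gene Cidec, which stayed under the floor in 3 LPS mice. Pdk4, which shuts off pyruvate dehydrogenase in fasting, was at 37.4, 12.5, 47.5, 39.1 and 25.6 units and 237, 54.9, 39.8, 20.8 and 72.7 units. LPS replicates 1, 2 and 5 lay above all vehicle mice, the groups overlapped, and the change did not pass (log2 change 1.03 ± 0.61, limma adjusted p = 0.147).

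More genes of glucose output and storage fell than rose. Pck1 fell far less than Slc2a2 and G6pc, and Fbp1 and Pcx rose. Slc2a2, the GLUT2 transporter through which hepatocytes exchange glucose with blood, was at 1693, 2520, 1593, 1849 and 1839 units after vehicle and 35.1, 36.9, 24.7, 17.2 and 26.2 units after LPS. It had the largest fall among genes above the floor in all 10 mice, 69.3-fold (log2 change -6.12 ± 0.23, limma adjusted p = 3.59e-14). G6pc, the glucose-6-phosphatase that releases free glucose, fell from 3399, 2205, 3351, 3020 and 1837 units to 348, 146, 22.6, 443 and 36.2 units. The LPS mice varied widely among themselves, with replicates 3 and 5 the lowest, and the mean fall was 23.8-fold (log2 change -4.57 ± 0.59, limma adjusted p = 1.35e-06). Slc37a4, which carries glucose-6-phosphate to that enzyme, fell 3.04-fold (limma adjusted p = 4.28e-10). Pck1, phosphoenolpyruvate carboxykinase, fell from 11070, 9437, 10170, 10760 and 8999 units to 7857, 7246, 4784, 8100 and 7120 units. That was 1.46-fold (limma adjusted p = 0.00129), with LPS replicate 3 the lowest. Fbp1, fructose-1,6-bisphosphatase, and Pcx, pyruvate carboxylase, rose 1.18-fold and 1.39-fold (limma adjusted p = 0.0187 and 0.000465), and the call on Fbp1 was lost after each array was centred on its median (0.158). Ppargc1a, a coactivator of gluconeogenic and oxidative genes, was at 216, 111, 116, 239 and 90.6 units and 73.7, 77.2, 78.1, 98.5 and 86.6 units, 1.74-fold lower with overlapping groups (limma adjusted p = 0.0388). Its call was lost when any of LPS replicates 1, 2, 3 and 5 or vehicle replicates 1 and 4 was left out (limma adjusted p from 0.054 to 0.117), and with no filter on dim genes (0.054). Over the gluconeogenesis list, 12 of 23 tested genes fell and 3 rose (median log2 change -0.54), against 27.6% lower and 38.1% higher over all tested genes. Leaving out 1 mouse gave 11 to 13 lower.

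Glycogen genes fell in 10 of 16 tested members and rose in 4 (median log2 change -0.88). Gys2, the liver glycogen synthase, fell from 2726, 2237, 2698, 2446 and 1874 units to 239, 198, 113, 256 and 179 units. The decrease of 12.5-fold (log2 change -3.65 ± 0.2, limma adjusted p = 8.41e-12) was seen in all LPS mice, with replicate 3 the lowest. Pygl, the liver phosphorylase that breaks glycogen down, fell from 2675, 3380, 2044, 2865 and 2407 units to 533, 681, 906, 717 and 967 units (3.54-fold, limma adjusted p = 5.05e-09). Ugp2, which makes UDP-glucose, fell 3.82-fold, while Gyg, the primer protein glycogenin, rose 2.63-fold (limma adjusted p = 1.79e-08). Genes of glycolysis rose in 10 of 14 and fell in 4, and the direction differed between isoenzymes of pyruvate kinase. Pkm, the isoenzyme of most tissues other than liver, rose from 13.3, 10.1, 11.8, 9.94 and 18.9 units to 192, 199, 556, 277 and 246 units, and Pklr, the liver isoenzyme, fell from 88.6, 252, 112, 147 and 204 units to 15.3, 14.1, 11.3, 16.4 and 45.4 units. Both changes separated the groups, and both folds (21.7 and 8.37) depend in part on values under the floor. Pfkl, liver phosphofructokinase, rose 3.65-fold, Ldha, lactate dehydrogenase A, rose 1.71-fold, and Gckr, the nuclear anchor of glucokinase, fell 2.57-fold (limma adjusted p = 2.58e-07, 2.07e-07 and 9.55e-07).

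Mitochondrial energy genes mostly fell, few of them by 2-fold. The citric acid cycle and pyruvate dehydrogenase list had 19 of 26 tested genes lower and 2 higher (median log2 change -0.57); 5 of the 19 fell at least 2-fold, and the other 5 tested genes did not pass. Dlat, the acetyltransferase subunit of pyruvate dehydrogenase, fell from 205, 176, 188, 184 and 159 units to 73.96, 87.9, 86.99, 72.3 and 58.04 units (2.42-fold, limma adjusted p = 1.13e-05). Sdhb, a succinate dehydrogenase subunit, fell 1.88-fold, Suclg1, a succinyl-CoA ligase subunit, 2.17-fold and Cs, citrate synthase, 1.498-fold. Fh1, fumarase, rose 1.37-fold (limma adjusted p = 0.000107). The rise of Dld, the shared lipoamide dehydrogenase, by 1.25-fold (limma adjusted p = 0.0483) was lost in 15 of 30 alternative analyses. Of 37 tested genes of oxidative phosphorylation, 34 fell and 0 rose, with a median log2 change of -0.46 and no gene past 2-fold. Ndufb10, a complex I subunit, fell from 1910, 1959, 1788, 1952 and 1917 units to 906, 937, 1036, 1036 and 898 units. Its groups did not overlap (1.98-fold, limma adjusted p = 1.93e-08). In 32 of the 37 genes the LPS mice were lower without overlap, against 21.7% of all tested genes.

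Genes of lipid synthesis moved in opposite directions for fatty acids and cholesterol. Of 23 tested genes of fatty acid and triglyceride synthesis, 17 fell and 1 rose (median log2 change -1.19), and of 20 tested genes of cholesterol synthesis and uptake, 17 rose and 1 fell (median 1.74). Sqle, squalene epoxidase, rose from 37.95, 54.8, 109, 46.9 and 91.9 units to 1450, 1396, 1244, 1022 and 1468 units, 20.8-fold (log2 change 4.38 ± 0.48, limma adjusted p = 1.72e-07). Hmgcs1, the cytosolic HMG-CoA synthase, rose from 531, 582, 547, 517 and 732 units to 4826, 3505, 3387, 2396 and 5683 units. No LPS mouse of either gene reached down to the vehicle range, and Hmgcs1 rose 6.56-fold (limma adjusted p = 2.44e-08). Lss, lanosterol synthase, rose 6.59-fold, and Mvd, mevalonate diphosphate decarboxylase, was under the floor after vehicle and at least 4.08-fold higher after LPS. Tm7sf2, a sterol reductase, was the member that fell (1.7-fold, limma adjusted p = 0.00466).

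On the fatty acid side, Acss2, which makes acetyl-CoA from acetate, fell from 402, 517, 331, 425 and 462 units to 59.9, 77.7, 30.1, 67.3 and 48.7 units, 7.83-fold (limma adjusted p = 9.37e-11). Lpin1, a phosphatidate phosphatase, fell from 5884, 5050, 3629, 4175 and 2857 units to 512, 550.5, 531, 790.4 and 1172 units. Its groups did not overlap and the fall was 6.22-fold (limma adjusted p = 1.08e-08). Srebf1, the factor that drives lipogenesis, fell from 71.6, 281, 70.6, 105 and 139.9 units to 40.3, 34.8, 62.9, 34.7 and 36.97 units, with vehicle replicate 2 the highest (2.84-fold, limma adjusted p = 0.000121). Fasn, fatty acid synthase, lay at 192, 521, 177, 169.8 and 381 units and 386, 262, 288, 260.1 and 637 units; the groups overlapped and the log2 change of 0.41 ± 0.28 did not pass (limma adjusted p = 0.207). Scd1, stearoyl-CoA desaturase, did not pass either (log2 change -0.61 ± 0.27, limma adjusted p = 0.0541). Acaca, acetyl-CoA carboxylase, fell 1.58-fold (limma adjusted p = 0.0218), a call lost without LPS replicate 3 (0.0662), vehicle replicate 2 (0.0803) or vehicle replicate 5 (0.0566) and in a fit of the 10 mice alone (0.0531). Elovl1, an elongase of very long chains, rose 2.398-fold (limma adjusted p = 5.07e-08).

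Genes of bile acid synthesis and transport showed the deepest fall of the metabolic lists by median, -1.69 on the log2 scale, with 22 of 25 tested genes lower and 1 higher. All LPS mice were under the floor for 3 of the 25, and the median over the 26 measured was -1.64. Cyp7a1, the rate-limiting hydroxylase of the classic pathway, was at 2454, 3098, 1135, 2226 and 1995 units after vehicle and 3.995, 5.52, 11.03, 11.4 and 3.51 units after LPS. All LPS mice were under the floor, at least 129.6-fold lower (limma adjusted p = 9.35e-11). Cyp8b1, which sets the share of cholic acid, fell from 2253, 2337, 2425, 2696 and 2831 units to 143, 189, 115, 771 and 111 units. LPS replicate 4 stood well above the other LPS mice, and the mean fall was 12.97-fold (limma adjusted p = 2.88e-07). Akr1d1, the reductase of the sterol ring, fell from 783, 826, 762, 1134 and 897 units to 27.3, 30.3, 40.7, 33.97 and 37.3 units. Spread was small in both groups, and the fall was 25.9-fold (log2 change -4.7 ± 0.15, limma adjusted p = 2.17e-15). Klb, the co-receptor through which intestinal FGF15 represses the pathway, fell from 158, 174, 170.3, 161 and 134 units to values under the floor, at least 9.92-fold lower.

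The transporter genes fell with those of the enzymes. Slc10a1, the uptake carrier NTCP, fell from 4599, 5306, 4648, 4890 and 4792 units to 345, 379, 316, 796 and 392 units, and LPS replicate 4 was again the highest LPS mouse (11.6-fold, limma adjusted p = 2.8e-10). Abcb11, the export pump BSEP, fell from 1305, 1597, 1040, 1008 and 1299 units to 242, 288, 243, 430.2 and 370.2 units (4.02-fold, limma adjusted p = 1.05e-09). Nr1h4, the bile acid receptor FXR, fell 2.09-fold (limma adjusted p = 4.41e-05). Nr0b2, the repressor SHP, fell from 167, 331, 326, 227 and 119.5 units to 10.9, 25.01, 4.32, 70.3 and 12.2 units; LPS replicates 2 and 4 stayed above the floor, and the fitted fold of 13.7 rests partly on values under it. Baat, which conjugates bile acids, was the member that rose (1.44-fold, limma adjusted p = 0.000842).

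The promoter of Cyp8b1 is shown for its match to the HNF4 letters (searched as CAAAGNCC), found in 4 of 20 bile acid genes with a window (20.0%), in 9.2% of genes that fell at least 4-fold and in 5.9% of all genes. The match, in capitals, covers -67 to -60 on the strand of the gene (chr9:121916306-121916555, minus strand, GRCm38.p6, RefSeq).
Cyp8b1: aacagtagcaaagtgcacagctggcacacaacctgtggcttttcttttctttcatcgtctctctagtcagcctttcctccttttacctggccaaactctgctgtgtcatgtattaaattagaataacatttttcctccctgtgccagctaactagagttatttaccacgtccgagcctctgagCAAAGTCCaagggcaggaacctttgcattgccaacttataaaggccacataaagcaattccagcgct

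Hnf4a, the hepatocyte factor of that name, lay at 2575, 2345, 2506, 2493 and 3358 units and 2705, 2588, 1910, 2707 and 2748 units. Its groups overlapped and its log2 change of -0.07 ± 0.12 did not pass (limma adjusted p = 0.62). Of 18 tested nuclear receptors and hepatocyte factors, 8 fell and 3 rose, against 27.6% lower and 38.1% higher over all tested genes. The groups did not overlap in 4 of the 8, and 6 fell without vehicle replicate 5 or without LPS replicate 4. Leaving out each of the 20 mice in turn gave 5 to 9 lower. Nr1i3, the xenobiotic receptor CAR, fell from 505, 538, 594, 488 and 488 units to 47.3, 27.3, 5.46, 50.6 and 23.4 units, with LPS replicate 3 under the floor (21.5-fold, limma adjusted p = 4.81e-08). Cebpa, a factor of the mature hepatocyte, fell 1.42-fold (limma adjusted p = 0.00161). Rxra, the shared partner of these receptors, did not pass (log2 change -0.37 ± 0.17, limma adjusted p = 0.065). Ahr, the dioxin receptor, rose 2.13-fold (limma adjusted p = 8.3e-07).

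Genes of drug-metabolising enzymes fell in 27 of 31 tested members and rose in 1 (median log2 change -1.14). All LPS mice were under the floor for 2 of the 31, and the median over the 32 measured was -1.12. Cyp3a25, a steroid and drug hydroxylase, fell from 4631, 5172, 4472, 5346 and 4659 units to 420.5, 578, 743, 838 and 636 units. The decrease was 7.74-fold (log2 change -2.95 ± 0.17, limma adjusted p = 1.58e-11). Fmo5, a flavin monooxygenase, fell 10.4-fold, Cyp1a2, which clears caffeine, 2.45-fold and Cyp3a11, the main mouse enzyme of the CYP3A family, 1.67-fold. Cyp2e1, the ethanol-metabolising P450, stayed among the brightest genes at 11340, 11620, 10830, 11230 and 11140 units after LPS and fell 1.26-fold (limma adjusted p = 0.000304). Cyp2b10, the target gene by which CAR activity is usually read, was the member that rose, from 9.44, 10.5, 6.74, 26.2 and 4.68 units to 88.5, 94.4, 70.02, 124 and 48.5 units. The groups did not overlap, and the fold of 8.45 depends on vehicle values under the floor.

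Genes that depend on growth hormone and male pattern fell in 13 of 19 tested members and rose in 2, against 27.6% lower and 38.1% higher over all tested genes. All LPS mice were under the floor for 4 of the 19. The median log2 change was -0.96, or -0.82 over the 21 measured. Ghr, the growth hormone receptor, fell from 3928, 3956, 3639, 3649 and 3342 units to 588, 669, 517, 997 and 562 units, 5.71-fold with no overlap (limma adjusted p = 2.21e-11). Igf1, the hormone made in response, fell 1.37-fold (limma adjusted p = 0.00498). Hsd3b5, a male-biased steroid dehydrogenase, was at 1529, 2069, 2379, 1539 and 732 units after vehicle and 3.57, 5.08, 7.85, 6.73 and 4.34 units after LPS. It was off in every LPS mouse, at least 95.8-fold lower. Sult1e1, estrogen sulfotransferase, rose from 7.96, 11.97, 5.47, 16.9 and 38.6 units to 588, 699.6, 553, 373 and 508 units. Every LPS mouse exceeded every vehicle mouse (limma adjusted p = 1.84e-09).

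Genes of amino acid catabolism fell in 29 of 40 tested members and rose in 5 (median log2 change -0.74). Prodh, proline dehydrogenase, fell from 934, 1183, 594, 1031 and 1149 units to 82.6, 119.5, 85.99, 199.6 and 88.8 units. The fall was 8.77-fold (log2 change -3.13 ± 0.21, limma adjusted p = 1.63e-10). Cps1, the entry enzyme of the urea cycle, fell from 8831, 9218, 8860, 9269 and 9442 units to 4462, 4987, 5192, 5489 and 4376 units, 1.87-fold with no overlap (limma adjusted p = 2.83e-08). Nags, which makes the activator of Cps1, rose 1.52-fold (limma adjusted p = 0.000873). Tdo2, tryptophan dioxygenase, did not pass (log2 change 0.15 ± 0.11, limma adjusted p = 0.228).

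Of 19 tested iron and haem genes 7 rose and 7 fell, the share of rises being near the 38.1% of all tested genes (27.6% of which fell). Slc11a2, the iron importer DMT1, rose from 14.8, 19.01, 16.5, 20.1 and 27.3 units to 143, 115, 109.9, 132 and 262 units, and Fech, the last enzyme of haem synthesis, fell 2.82-fold (limma adjusted p = 3.37e-09). Of 19 tested oxidative defence genes 8 rose and 6 fell, both shares again near those of all tested genes. Sod2, the mitochondrial superoxide dismutase, rose from 2608, 2487, 2687, 2676 and 3125 units to 6646, 6699, 7664, 6278 and 7717 units. Its groups did not overlap (2.58-fold, limma adjusted p = 7.97e-11). Hmox1, haem oxygenase, rose 3.77-fold with LPS replicate 3 the highest, and Cat, catalase, fell 2.12-fold (limma adjusted p = 8.45e-06 and 1.42e-06). Of 15 tested clock genes, 9 fell and 4 rose, and leaving out 1 mouse gave 7 to 9 lower and 2 to 5 higher. All LPS mice were under the floor for 2 of the 15. Dbp, a clock-driven factor, fell from 1463, 1750, 1241, 1069 and 578 units to 80.7, 127, 142, 122 and 75.7 units (10.8-fold, limma adjusted p = 1.12e-06), and Usp2, a rhythmic deubiquitinase, was under the floor in all LPS mice, at least 41.7-fold lower. Genes of apolipoproteins and their handling fell in 13 of 21 tested members and rose in 2. The groups did not overlap in 8 of the 13, and 10 fell without LPS replicate 3 and 11 without vehicle replicate 5. Leaving out each of the 20 mice in turn gave 9 to 13 lower. Abca1, which loads cholesterol onto high-density lipoprotein, rose 2.27-fold (limma adjusted p = 2.66e-08). Cytosolic ribosomal protein genes rose in 10 of 19 with 0 lower, by a median log2 of 0.25, and in 4 of 19 after each array was centred on its median.

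**Figure D3:**
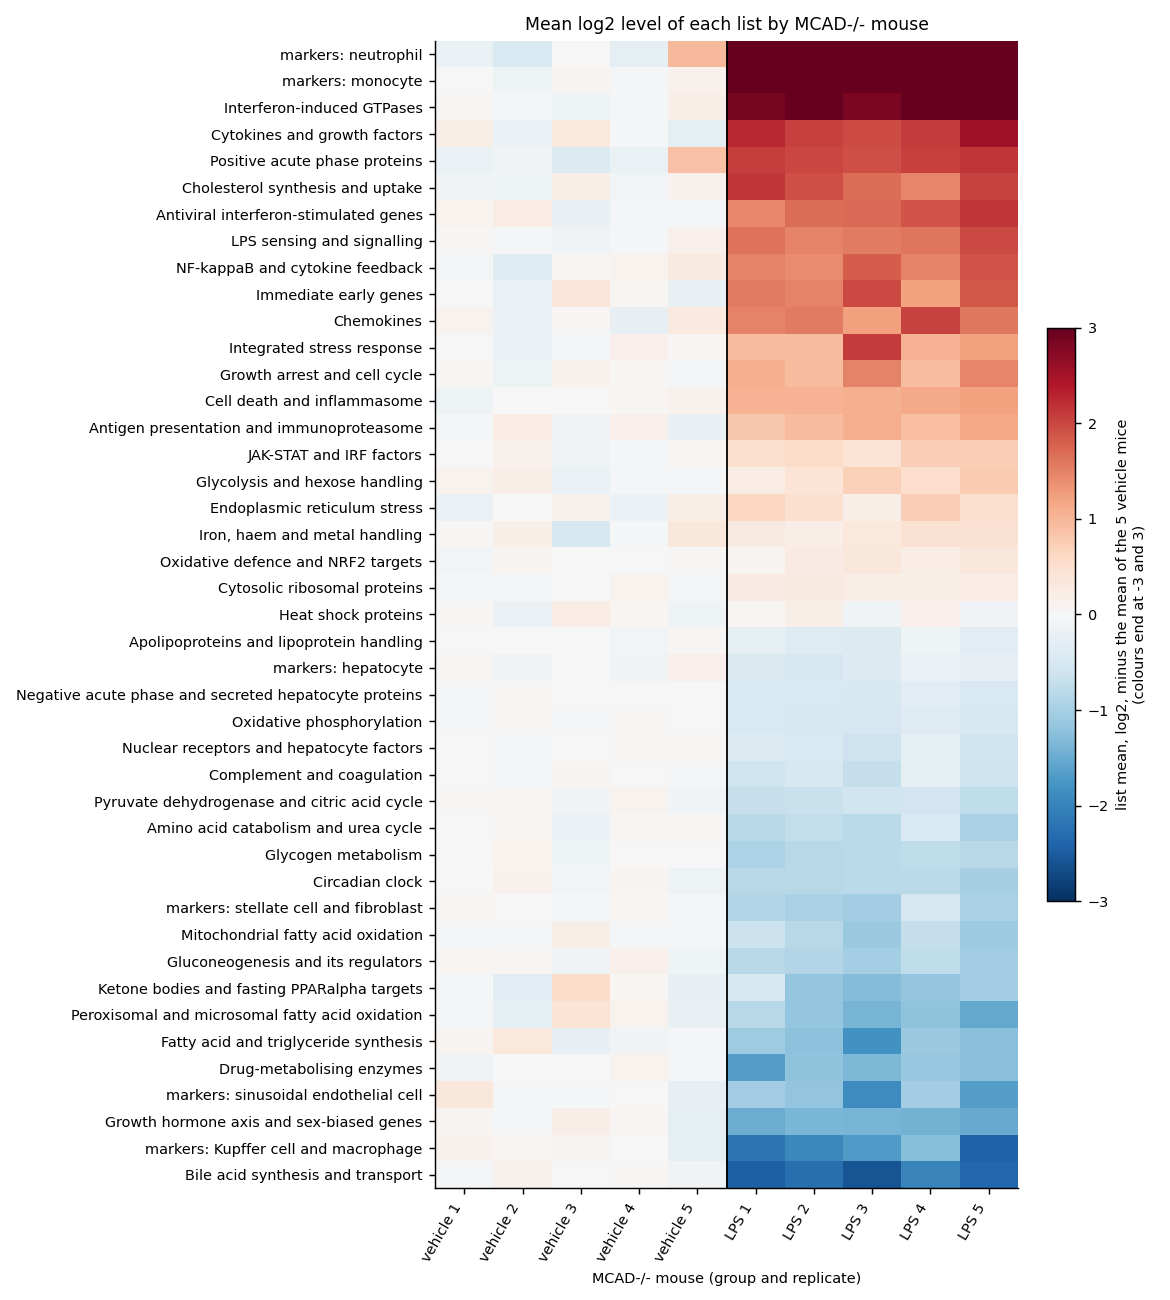
Mean log2 level of each list's tested members in each of the 10 mcad -/- mice, minus the mean of the 5 vehicle mice (colour, log2 units, ends of the scale at -3 and 3). Vehicle replicate 5 is redder than its group in the acute phase and neutrophil lists, and LPS replicate 3 is the reddest LPS mouse in the integrated stress response (8.15 against 7 to 7.26).

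Genes that appeared or disappeared stood beside these lists. In 400 genes that rose, all 5 vehicle mice were under the floor, and in 233 of them all 5 LPS mice were above it. Crybb3, a lens crystallin gene, had the largest bound, from 5.704, 7.17, 4.696, 7.44 and 11.2 units to 870, 929, 1429, 915 and 1240 units, at least 65.97-fold. Olig1, a factor known from oligodendrocytes, went from 4.92, 6.32, 3.21, 3.87 and 6.97 units to 794, 471, 1234, 239 and 559.9 units, at least 35.8-fold. Neither gene is one that liver is known for, and both were called in all 29 alternative analyses run for them. In 228 genes that fell, all 5 LPS mice were under the floor. After Cyp7a1, Hsd3b5 and Usp2, the largest bounds were those of Rgs16, a brake on G protein signalling (at least 27.4-fold), the steroid dehydrogenase gene Hsd3b3 (at least 26.9-fold) and Acot1. Among genes that stayed above the floor, Coq8b, which supports coenzyme Q synthesis, rose from 16.6, 26.97, 17.7, 35.8 and 40.7 units to 610.3, 587, 818, 461 and 635 units, and Enc1, an actin-binding protein gene, rose 22.1-fold with LPS values from 187 to 1208 units. Aldh3a2, the fatty aldehyde dehydrogenase, fell from 546, 508, 994, 511 and 464 units to 24.3, 19.4, 18.1, 22.6 and 21.4 units (27.6-fold, limma adjusted p = 3.1e-14).

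Markers of other liver cells moved with these results. In whole tissue, fewer cells of a type and less RNA per cell cannot be told apart. Of 12 tested hepatocyte markers, 8 fell and 1 rose, with a median log2 change of -0.30. Resident macrophage markers fell: 10 of 11 tested Kupffer cell and macrophage markers were lower and 1 higher, with a median log2 change of -2.12 (-1.44 over the 14 measured), and the mean over the list was 7.27 to 7.67 in vehicle mice and 5.12 to 6.26 in LPS mice. Vsig4, a complement receptor of Kupffer cells, fell from 374, 362, 424, 362 and 305 units to under the floor in all LPS mice, at least 22.7-fold lower. Marco, a scavenger receptor, was the member that rose, from 10.9, 4.57, 8.14, 11.2 and 8.06 units to 138, 249, 487, 342 and 187 units. Timd4, Cd68 and Folr2 were too near the floor to be tested. Of the 11 tested markers, 2 were under the floor in all LPS mice and 1 in all vehicle mice.

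Markers of monocytes and neutrophils rose. In whole tissue, more cells of a type and more RNA per cell cannot be told apart. The 5 tested monocyte markers all rose, with list means of 3.47 to 3.74 in vehicle mice and 7.15 to 7.54 in LPS mice, and the 6 tested neutrophil markers all rose, with means of 3.97 to 5.39 and 8.49 to 8.75; 3 of each were under the floor in all vehicle mice, and the medians over all measured members were 1.84 for the 9 monocyte and 0.8 for the 14 neutrophil markers. Chil3, made by monocytes and macrophages, was at 2.85, 3.01, 3.85, 3.18 and 4.98 units and 333, 293, 318, 352 and 338 units. Mmp8, a neutrophil collagenase, was at 3.18, 3.01, 4.04, 3.66 and 5.27 units and 53.5, 48, 36.2, 55.8 and 47.7 units. The highest vehicle mean in the neutrophil list was that of vehicle replicate 5. Without that mouse 5 of the 6 neutrophil markers rose, as they did after median centring and after quantile scaling. The granule genes Mpo, Elane, Camp and Ltf, the receptors Cxcr2 and Csf3r, and Mmp9 and Trem1 were not tested, and no gene defining T, NK, B or bile duct cells was bright enough to test. The part of these shifts in the gene lists above was not tested.

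Endothelial markers responded differently in the 2 genotypes. Of 15 tested markers of sinusoidal endothelial cells, 10 fell and 2 rose in mcad -/- mice (median log2 change -1.13), and without LPS replicate 3, 9 fell (median -0.84). In wild type mice 3 fell and 6 rose after LPS (median 0.45). For 7 of the 15 the response itself differed between genotypes, always more negative in mcad -/- mice, against 2.76% of all tested genes with such a difference (limma interaction test). Clec4g, a lectin of these cells, was at 895, 685, 846, 655 and 668 units after vehicle and 20.4, 16.3, 9.62, 14.2 and 12.9 units after LPS in mcad -/- mice, and at 261, 147, 228, 175 and 189.9 and 24.2, 18.1, 8.37, 11.4 and 15.9 units in wild type mice. The 2 LPS groups met near the floor from different vehicle levels, and the log2 responses differed by -1.95 ± 0.34 (limma interaction adjusted p = 0.00227).

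Kdr, a receptor of vascular endothelial growth factor, was at 146, 108, 99.1, 115 and 109 units and 17.9, 24.7, 10.99, 22.2 and 10.5 units in mcad -/- mice and 64.8, 22.2, 79.5, 28.6 and 40.6 and 29.6, 33.4, 14.3, 24.1 and 35.2 units in wild type mice. Its log2 response was -2.82 in mcad -/- and -0.69 in wild type mice (interaction adjusted p = 0.0115, limma). Tek, the angiopoietin receptor, was at 63.4, 32.4, 43.4, 46.6 and 41.3 units and 23.5, 15.7, 10.7, 20.9 and 10.1 units in mcad -/- mice and at 20.7, 14.98, 35.9, 20.1 and 15.5 and 35.95, 39.5, 20.5, 17.8 and 33.9 units in wild type mice. It fell in mcad -/- mice (log2 -1.53) and did not pass in wild type mice (log2 0.47), with a difference that passed (interaction adjusted p = 0.00669, limma). The other 4 were the lymphatic VEGF receptor gene Flt4 (log2 -1.62 in mcad -/- and -0.12 in wild type mice), the DNase gene Dnase1l3 (-1.41 and 0.14), the scavenger receptor gene Stab2 (-0.59 and 0.86) and the receptor gene Gpr182 (-0.06 and 1.07), with interaction adjusted p of 0.0112, 0.0187, 0.0115 and 0.0256 (limma). The difference for Gpr182 was lost without wild type vehicle replicate 4 (interaction adjusted p = 0.0529, limma), and those of the other 6 markers passed in every alternative run for them. For Bmp2, Oit3, Fcgr2b, Stab1, Lyve1, Mrc1, Cdh5 and Egfl7 the difference did not pass (interaction adjusted p from 0.0506 to 0.368, limma). Lyve1, a hyaluronan receptor, and Cdh5, VE-cadherin, rose in both genotypes, 3.23-fold and 1.86-fold in mcad -/- mice. Pecam1 was not tested.

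**Figure D4:**
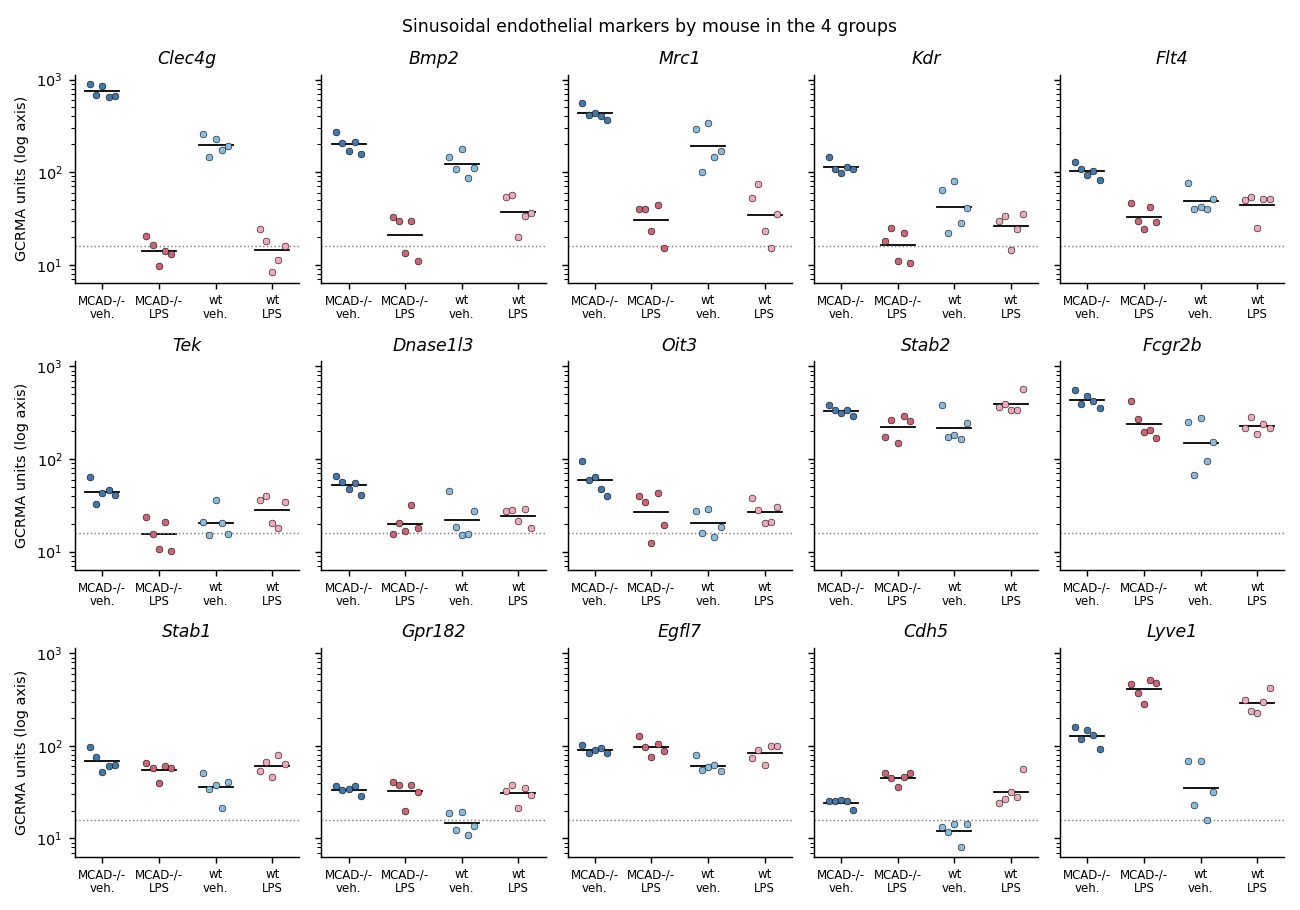
Array intensity (units, log axis) of the 15 tested sinusoidal endothelial markers in the 4 groups of 5 mice; points are single mice and bars are means of log2 values. In Clec4g, Kdr and Tek the mcad -/- vehicle mice have the highest mean of the 4 groups, and the LPS mice of both genotypes lie near the floor in Clec4g.

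Stellate cell and fibroblast markers fell in 7 of 12 tested members with 0 higher in mcad -/- mice (median log2 change -0.76), and in wild type mice 4 fell and 2 rose (median -0.14). All mcad -/- LPS mice were under the floor for 2 of the 12, and the mcad -/- median over the 15 measured was -0.7. Pdgfrb, the PDGF receptor of these cells, was at 44.7, 52.2, 39.5, 41.96 and 61.3 units and 23.5, 31.1, 18.8, 40.9 and 17.8 units in mcad -/- mice. It fell there with overlapping groups (log2 -0.91) and rose in wild type mice (log2 0.72), a difference of -1.63 ± 0.29 (interaction adjusted p = 0.00264, limma). Reln, reelin, fell 2.85-fold in mcad -/- mice, and its response did not pass as different from wild type (0.627).

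Across all genes the responses of the genotypes ran close together. In wild type mice 5614 genes passed (64%), 3507 higher (40.0%) and 2107 lower (24.0%), the groups did not overlap for 46.1% of genes tested, and 14.1% rose and 8.81% fell by at least 2-fold. Of the genes that rose in mcad -/- mice 83.0% also rose in wild type mice, and of those that fell 74.2% also fell; conversely, 79.2% of the wild type rises and 85.4% of the wild type falls were found in mcad -/- mice. Over the 8774 genes the log2 responses correlated with a Pearson r of 0.902 and a Spearman rho of 0.876, which describes genes that share arrays and are not independent. The response differed between genotypes for 361 genes (4.11%, limma interaction test), with 119 more positive (1.36%) and 242 more negative (2.76%) in mcad -/- mice. The count was 879 with array weights and 165 when all 4 group means had to exceed the floor. Of the 361, 160 changed in the same direction in both genotypes, by more in mcad -/- mice for 93 and by less for 67, 106 passed in mcad -/- mice alone, 70 in wild type mice alone and 25 in opposite directions.

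**Figure D5:**
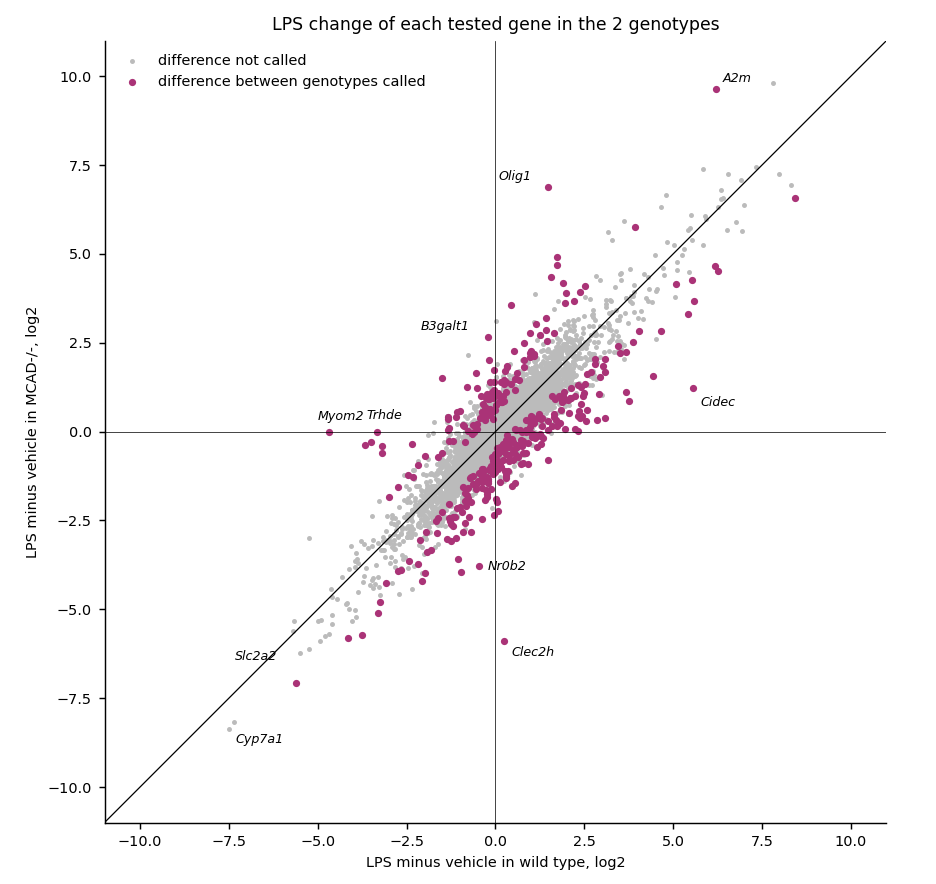
Log2 change after LPS in wild type liver (x axis) and mcad -/- liver (y axis) for the 8774 tested genes, each point a gene. Purple points are the 361 genes whose response differed between genotypes by the interaction test, and the other points follow the diagonal (Pearson r 0.902 over all genes).

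Several genes rose more in mcad -/- than in wild type mice. B3galt1, a galactosyltransferase, was at 129, 79.3, 77, 128 and 167 units and 784, 747, 568, 643 and 766 units in mcad -/- mice, and at 566, 362, 520, 392 and 438 and 339, 290.1, 415, 449 and 478 units in wild type mice. Its log2 response was 2.65 against -0.21 (interaction adjusted p = 3.04e-06, limma), and the vehicle groups lay further apart than the LPS groups. Il1r1, the interleukin-1 receptor, was at 134, 146, 87.5, 146 and 314 units and 749, 646, 835, 558 and 882 units in mcad -/- mice and at 392, 277, 302, 252 and 376 and 285, 436, 594, 393 and 653 units in wild type mice. It rose 4.801-fold in mcad -/- mice and did not pass in wild type mice, and the difference passed (log2 1.74 ± 0.37, interaction adjusted p = 0.0115, limma). Tiparp, a target gene of the dioxin receptor, rose in both genotypes, 14.9-fold in mcad -/- and 3.94-fold in wild type mice (interaction adjusted p = 0.00854, limma). Slc3a1, the subunit of a cystine carrier, rose 3.33-fold in mcad -/- mice against a wild type log2 change of -0.03 (interaction adjusted p = 0.00264, limma).

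Olig1 and A2m differed by the size of their induction. Olig1 stayed under the floor on average in wild type LPS mice (9.53, 2.59, 9.31, 13.5 and 37.7 units), against 794, 471, 1234, 239 and 559.9 units in mcad -/- LPS mice (interaction adjusted p = 9.17e-05, limma). A2m reached 501, 746, 542, 290 and 234 units in wild type LPS mice, at least 26.5-fold above vehicle, and 6150 to 8261 units in mcad -/- LPS mice (interaction adjusted p = 0.0136, limma). The 2 LPS groups did not overlap in either gene, and the difference for A2m held without vehicle replicate 5 (log2 4.20, interaction adjusted p = 5.47e-07, limma).

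Other genes differed because they fell or rose in 1 genotype more than in the other. Clec2h, a lectin gene, went from 324, 184, 245, 387 and 58.1 units to 4.13, 3.501, 2.71, 3.54 and 3.102 units in mcad -/- mice, and was under the floor in both wild type groups, with means of 3.199 and 3.803 units (interaction adjusted p = 9.14e-08, limma). Myom2 and Trhde showed the reverse layout. Myom2, a muscle sarcomere gene, was under the floor in all mcad -/- mice and fell from a mean of 357 to 13.9 units in wild type mice, and Trhde, a peptidase gene, fell from 27.5 to 2.75 units there. Their interaction values (adjusted p = 2.78e-05 and 2.66e-07, limma) rest on wild type mice alone. Nr0b2 fell in mcad -/- mice, while wild type mice held 274, 232, 88.7, 187 and 259 and 151, 291, 77.2, 191 and 83.3 units (interaction adjusted p = 0.0187, limma). Cidec, the lipid droplet gene, rose less in mcad -/- than in wild type mice (log2 1.23 against 5.56). It reached 436, 532, 361, 472 and 382 units in wild type LPS mice and 42.1, 11.5, 20.1, 8.29 and 11.2 units in mcad -/- LPS mice. The LPS groups of the genotypes did not overlap, and the log2 responses had a difference of -4.32 ± 0.44 (interaction adjusted p = 5.06e-06, limma).

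Among metabolic genes the larger falls in mcad -/- mice included those of Gys2 (12.5-fold against 5.39-fold in wild type mice, interaction adjusted p = 0.0173, limma) and Bdh1 (5.69-fold against 2.42-fold, interaction adjusted p = 0.0187, limma). Fmo5 fell 10.4-fold against 3.81-fold, Aldh3a2 27.6-fold against 9.55-fold and Cmbl, a hydrolase, 5.32-fold against 1.68-fold (interaction adjusted p = 0.00774, 0.00145 and 2.63e-05, limma). Fgf21 fell under the floor in mcad -/- mice and held means of 16.5 and 16.9 units in wild type mice, close to the floor (interaction adjusted p = 0.0309, limma), and the difference was lost in 5 of 27 alternative analyses (highest adjusted p 0.061). Pcx rose in mcad -/- mice and did not pass in wild type mice (log2 0.48 against -0.15, interaction adjusted p = 0.0187, limma). G6pc, Slc2a2, Pklr, Ppara and Pdk4 did not pass the test of a difference between genotypes (interaction adjusted p = 0.218, 0.13, 0.847, 0.161 and 0.213, limma). The SE of the difference for G6pc was 0.83 on the log2 scale, and such a p does not show equal responses.

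The membrane-trafficking gene Ehd3, the water channel gene Aqp1 and the prostaglandin carrier gene Slco2a1 had more negative responses in mcad -/- mice. Ehd3 went from 362, 256, 237, 219.6 and 221 units to 22.1, 25.9, 17.7, 22.9 and 19.03 units in mcad -/- mice and from 75.9, 47.7, 66.8, 35.1 and 57.9 to 32.6, 31.4, 16.6, 21.2 and 35.6 units in wild type mice. Slco2a1 fell in mcad -/- mice (log2 -1.44) and rose in wild type mice (log2 0.54), and Aqp1 fell 5.06-fold against a wild type log2 change of -0.04 (interaction adjusted p = 5.02e-05, 0.000228 and 0.0141 in the order Ehd3, Slco2a1, Aqp1, limma). As in the endothelial list, vehicle levels were further apart between genotypes than LPS levels. Among interferon-induced genes, Gbp2b, Oasl2 and Irf7 rose less in mcad -/- than in wild type mice (log2 6.58 against 8.44, 4.53 against 6.25, and 4.16 against 5.08; interaction adjusted p = 0.0108, 0.0138 and 0.043, limma), and the difference for Irf7 was lost in 19 of 29 alternative analyses.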

How the data were processed

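Total liver RNA of 20 mice, 5 in each of 4 groups named by the labels, was measured on 1 Affymetrix array each. The authors deposited linear intensity values made with GCRMA, per the submitters' processing notes; the version was not given in the sources used here. GCRMA corrects background and normalises arrays together, so low intensities crowd at a floor and differences in total RNA per cell are not kept. The deposited table holds no probe-level data, so the number of arrays limits the precision here.

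Of 45101 probe sets, 64 controls, 932 with several gene symbols and 9160 without a name were left out, and 34945 with 1 symbol remained, covering 18193 genes. Names came from the platform annotation, and 34741 probe sets matched RefSeq by gene ID. The brightest probe set over the 20 arrays stood for its gene. Values were taken to log2 and fitted with limma 3.58.1 (R 4.3.3) as 4 groups sharing 1 estimate of spread, with contrasts for LPS in each genotype and for their difference. The 8774 genes above 16 units on at least 5 of 20 arrays were tested at an adjusted p of 0.05. Acadm was tested by exact permutation. Tables and figures were made with Python 3.11.15, pandas 2.3.3 and matplotlib 3.10.9.

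Data were simulated from these arrays with 67, 67 and 66 of 8774 genes changed 1.5, 2 and 4-fold. The comparison in mcad -/- liver recovered 55.2%, 88.1% and 98.5% of them, and the difference between genotypes 29.9%, 68.7% and 92.4%. In the real comparison in mcad -/- liver 65.7% of genes passed. The adjusted p depends on the share of changed genes, so the simulated rates do not measure the power of that comparison.

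The genes, lists and tests were chosen with earlier results of these data known. Named genes were the 10 largest rises and falls among separated genes above 16 units in all 10 mice, the 6 largest bounds in each direction, 2 genes per direction with the smallest adjusted p in each list, a panel of known liver genes, Acadm, and for the difference between genotypes the 8 largest of each sign above 16 units on all 20 arrays and the 4 largest of each sign among the others. Endothelial markers, Xaf1, Acad9, Cp, Cfb and list members outside this rule were named after their values were seen. Alternatives covered the filter, the choice of probe set, scaling, the prior, array weights, a minimum fold of 1.5, a replicate block, a fit of the compared mice alone, and leaving out each mouse.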

Additional observations from a re-analysis of the deposited data

Results flagged for a closer look

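Within groups of 5 mice, a value was singled out when its gap to the nearest other mouse exceeded 0.71 of the group's range (Dixon's test), which chance does in about 1 in 20 groups; 25 of 456 gene values and 9 of 90 list means were singled out.

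Vehicle replicate 5 had high Lcn2 (2794 units against 61.18 to 180.2 in the other mice), A2m (73.35 against 3.762 to 6.434), Steap4 (1526 against 584.4 to 718.1), Gbp2b (15.58 against 8.284 to 9.789) and Hnf4a (3358 against 2345 to 2575), and low Akr1c14 (1008 against 1638 to 1700) and Cdh5 (20.22 against 25.25 to 25.86). Its mean log2 level over the positive acute phase list was 11.7 against 10.4 to 10.71. Vehicle replicate 3 had low Hamp (94.64 against 2475 to 6210), Ndufb10 (1788 against 1910 to 1959) and Prodh2 (437.2 against 538.3 to 572.6), and high Bdh1 (1726 against 1109 to 1170), Aldh3a2 (994 against 464.2 to 546.4) and Dnaja1 (2264 against 1777 to 1900). Its mean over mitochondrial fatty acid oxidation was 10.51 against 10.26 to 10.3, and over amino acid catabolism 10.53 against 10.72 to 10.77. Vehicle replicate 1 had low Tnfaip3 (4.752 units, under the floor like the rest). Vehicle replicate 4 had low Atf6 (338 units) and a high ribosomal protein mean (11.22 against 11.08 to 11.12).

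LPS replicate 4 had high Klkb1 (145.6 units against 40.71 to 51.85), Cyp8b1 (770.9 against 110.7 to 189.4) and Slc10a1 (795.7 against 315.9 to 391.7), low Elovl1 (454.9 against 528.2 to 559.5) and a mean of 12.49 over the negative acute phase list against 12.35 to 12.37. LPS replicate 3 had low Pck1 (4784 units against 7120 to 8100) and Hnf4a (1910 against 2588 to 2748), high Srebf1 (62.92 against 34.67 to 40.26) and Alb (19510 against 18790 to 18990), a mean of 7.69 over fatty acid synthesis against 8.26 to 8.44, and 8.15 over the integrated stress response against 7 to 7.26. LPS replicate 5 had high Pklr (45.39 units against 11.33 to 16.41), a mean of 6.71 over LPS sensing against 6.22 to 6.35 and 6.49 over clock genes against 6.67 to 6.69. LPS replicate 1 had low Cyp1a2 (1287 units against 1686 to 1815).

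The log2 response in mcad -/- mice minus that in wild type mice passed limma's interaction test for 43 named genes. It was positive for Olig1 (5.40), Myom2 (4.66), A2m (3.43), Trhde (3.32), B3galt1 (2.86), Ugt2b38 (2.19), Tiparp (1.92), H2bc21 (1.89), Slc3a1 (1.77), Il1r1 (1.74), Brca1 (1.70), Atxn1 (1.69), Slc4a4 (1.63), Prox1 (1.12), Dlat (1.04), Pcx (0.62) and Abca1 (0.62). It was negative for Clec2h (-6.15), Cidec (-4.32), Nr0b2 (-3.31), Sgk2 (-2.97), Ehd3 (-2.52), Aqp1 (-2.30), Slco2a1 (-1.97), Clec4g (-1.95), Fgf21 (-1.92), Gbp2b (-1.86), Clec1b (-1.82), Tubb2a (-1.81), Oasl2 (-1.73), Cmbl (-1.66), Usp2 (-1.64), Myo10 (-1.64), Pdgfrb (-1.63), Aldh3a2 (-1.53), Hsd3b2 (-1.46), Fmo5 (-1.45), Bdh1 (-1.23), Gys2 (-1.22), Pbld2 (-1.21), Irf7 (-0.92), Ghr (-0.85) and Angptl6 (-0.78).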

How the results depend on the processing

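Among named genes, no value that passed its test reversed direction under the alternatives that kept 1 value per gene. The changes of Acadm, Hnf4a and Myom2 between the mcad -/- groups, which did not pass, changed sign under some of them. Of the 3460 genes with several tested probe sets, 148 had probe sets that passed in opposite directions in mcad -/- liver. With each probe set tested on its own, 8734 probe sets passed in mcad -/- liver, 3749 of them lower, and 8511 in wild type liver, 3494 of them lower, because more features were tested. Genes whose response differed between genotypes numbered 236 (149 negative) with a floor of 64 units, 879 (296 positive, 583 negative) with array weights, and 165 (59 positive, 106 negative) when all 4 group means had to exceed the floor, an alternative chosen after seeing the data; the first and last test fewer genes, and the cause of the change with array weights was not tested. Leaving out each mouse in turn gave 5462 to 5949 genes in mcad -/- liver (3145 to 3460 higher, 2271 to 2489 lower), 5344 to 5676 in wild type liver (3301 to 3543 higher, 1964 to 2133 lower) and 262 to 468 for the difference (81 to 164 positive, 173 to 327 negative). The log2 change of Acadm ranged from -0.34 to 0.64 between the mcad -/- groups, and from -6.04 to -5.06 between mcad -/- LPS mice and wild type LPS mice.

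With the replicate number as a block, 5796 genes passed in mcad -/- liver, 5619 in wild type liver and 384 for the difference. Same-numbered mcad -/- mice deviated together with correlations of -0.022 to 0.213, so the numbers were not taken to pair mice. Of 43 named genes whose response differed, 31 passed under every alternative run. The others, with the highest adjusted p reached, were Pbld2 (0.0521), Usp2 (0.0738), Irf7 (0.0825), Prox1 (0.1), Abca1 (0.249), Angptl6 (0.0597), Fgf21 (0.061), Dlat (0.068), Ghr (0.272), H2bc21 (0.0837), Brca1 (0.121) and Clec1b (0.0503). The floor of the arrays limits what can be said of genes dim in 1 group.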
